A study of Mus musculus with 4 samples.

Results

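Gene expression in CD44low CD62Llow CD8 T cells, called P4 after the array's label, was compared with that in CD44high CD62Llow CD8 T cells, called P3, across all genes of the array. A gene entered the comparison if its probe was well above background on the P3 array, the P4 array or both, and 13997 of 22909 genes met this rule. The RNA came from CD8 T cell subsets of the spleen and lymph nodes of C57BL/6 mice, untreated and 1 to 3 months old, told apart by CD44 and CD62L. All mice were PD-1-/-, so every subset, including those used as a reference, lacked the coinhibitory receptor PD-1. P1 (CD44low CD62Lhigh) and P2 (CD44high CD62Lhigh) came from the same design and are given beside each result. How the cells were separated, with which other gates, and how many mice were pooled are points on which the sources used here are silent. Each subset was hybridised to 1 single-colour Agilent array, with no replicate. A difference between P4 and P3 is therefore a size for these 2 arrays, and no test between the subsets was possible.

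CD44 is a hyaluronan receptor that CD8 T cells carry at high density after antigen or homeostatic stimulation, and CD62L lets them enter lymph nodes. Cells high for CD44 and low for CD62L are known as effector or effector memory cells, which patrol tissues, release cytokines quickly and kill through granzymes and perforin. Cells low for both markers fit neither this phenotype nor the naive one, which is CD62Lhigh. Comparing them with P3 asks which parts of the effector programme go with CD44 among CD62Llow cells.

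A level is the log2 of the deposited processed signal minus the log2 of the array's 75th percentile, so that 0 is the 75th percentile itself. The lowest signals well above background lay at -5.36 in P3 and -4.82 in P4. A difference is P4 minus P3 on this log2 scale, and 1 stands for 2-fold. The floor of an array is the faintest signal that passed as well above background there. Dim values below the floor were raised to it, and dim values above it kept their level. Where a gene was well above background on 1 of both arrays, the fold is written as "at least". Such bounds enter counts and medians at the bound. The median difference over all 13997 genes was 0.04. Of these genes, 583 (4.17%) reached 2-fold with P4 the higher array, and 1256 (8.97%) with P4 the lower array. Bounds made up 135 of the higher and 469 of the lower genes. Large sizes lay on the lower side, with 512 genes (3.66%) at least 4-fold lower in P4 and 98 (0.7%) at least 4-fold higher. At the edge of the rule, Tigit (-1.0) lay just inside 2-fold and Tnfrsf25 (-1.0) just outside. From bulk RNA, fewer cells of a type and less RNA per cell cannot be told apart. Repeated spots within an array give a difference a 95% half-width of 0.20 for genes at a level of 0 or more, 0.28 between -3 and 0 and 0.63 below -3. These widths hold spot noise only, and say nothing of the spread from mouse to mouse or from labelling to labelling. Of the 583 genes higher in P4, 185 were dim, with a P4 level below -3. The arrays also differed in brightness: the 75th percentile was 799 intensity units in P3 against 453 to 481 on the other 3, and 30811 probes were well above background in P3 against 27827 to 28617.

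**Figure D1:**
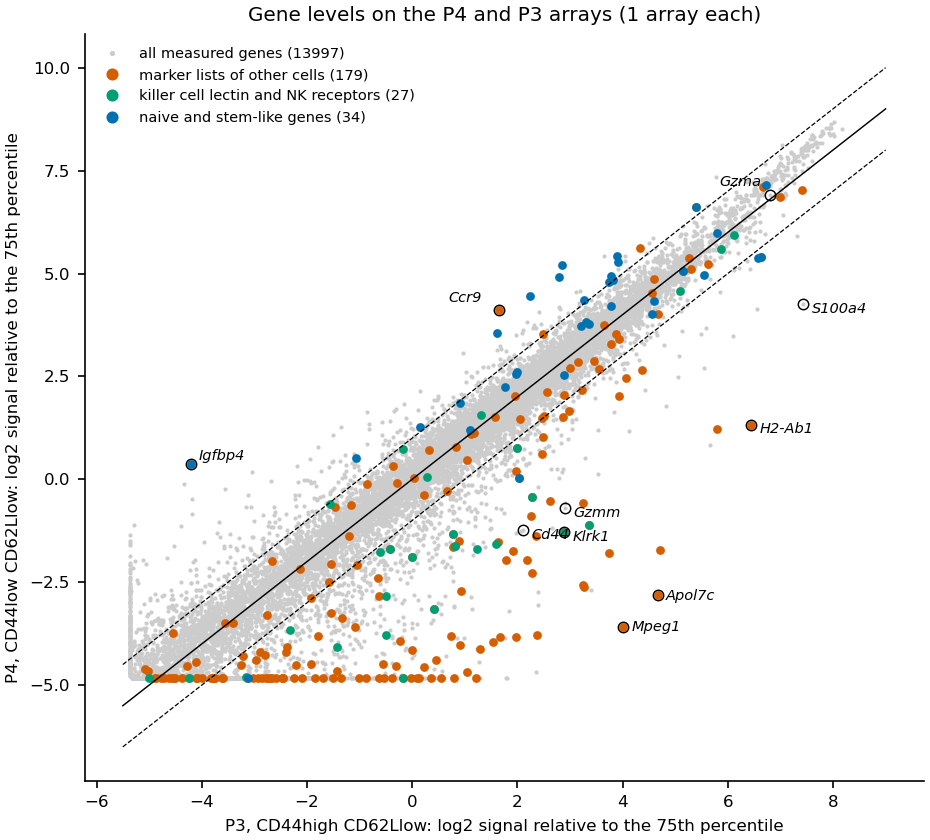
Level of each measured gene on the P3 array (horizontal) and the P4 array (vertical), both as log2 signal relative to the array's 75th percentile. The solid line is equality and the dashed lines are 2-fold. Marker genes of other cell types spread far below the lower dashed line, down to Mpeg1 at a difference of -7.60, whereas naive and stem-like genes lie on both sides of equality, with 14 of 34 on or above the upper dashed line, up to Igfbp4 at 4.58. Values not well above background are drawn at or above the array's lowest level well above background, which gives the straight edges at left and bottom.

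The genes that define the subsets and the lineage were read first. Pdcd1, the gene disrupted in these mice, stood at 1.76 in P3, 1.70 in P4, -3.30 in P1 and -3.06 in P2. The P4 and P3 levels lay within spot noise of each other and well above both CD62Lhigh arrays. Whether the probe lies inside or outside the deleted part was not examined, and the signal therefore checks neither genotype nor labels. Cd44 stood at 2.11 in P3, -1.24 in P4, -1.80 in P1 and 2.26 in P2, a difference of -3.35 (10.2-fold lower in P4). Both CD44low arrays were thus low for the transcript.

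The other T cell genes differed little. Cd8a (-0.13, whose probes disagreed in sign) and Cd8b1 (0.07), the chains of the CD8 coreceptor, were alike on both arrays. Cd3e, Cd3d and Cd3g of the T cell receptor complex differed by 0.39, 0.32 and 0.26, the kinase genes Lck and Zap70 by 0.24 and 0.09, and Thy1 by 0.48. In all, 14 of the 19 lineage and sort genes lay above 0, with a median of 0.12. That median was -0.11 in the authors' value table, so no direction is drawn from it. Cd4, the coreceptor of helper T cells, stood at 0.22 in P3, -0.39 in P4, -0.40 in P1 and -0.38 in P2, with a difference of -0.61.

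Transcripts of antigen-presenting cells formed the largest differences. The genes lower by most in P4 and measured on both arrays were Mpeg1, which encodes the phagocyte pore protein perforin-2, at -7.60 (194-fold, and -2.59 for its other probe), Apol7c at -7.49, Plbd1 at -6.42 and Aif1, a myeloid calcium-binding protein, at -6.16. Mpeg1 stood at 4.01 in P3, -3.58 in P4 and -2.31 in P2 (not well above background in P1). Plbd1 stood at 4.71 in P3, -1.71 in P4, -3.54 in P1 and -0.83 in P2. P3 alone was bright for both genes, and P2 came next. Among genes not well above background in P4, Csf2rb and Csf2rb2, the shared receptor chains for GM-CSF and related cytokines, were at least 69.2-fold and at least 98.7-fold lower, and Batf3, the transcription factor of type 1 dendritic cells, at least 48.7-fold. Of the 179 measured members of 17 marker lists for other cells, 108 (60.3%) were at least 2-fold lower in P4 and 4 higher, with a median of -1.47. Among the 13818 genes in no such list, 1148 (8.31%) were lower and 579 (4.19%) higher.

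By cell type, macrophage and monocyte markers were lower in 19 of 23 measured members, and 23 of the list's genes were well above background in P3 against 9, 13 and 11 in P1, P2 and P4. Of the defining macrophage genes, Adgre1, an adhesion receptor gene, was at least 5.09-fold lower in P4, Cd5l at least 9.99-fold and C1qa at least 5.14-fold. These 3 genes were not well above background in P1, P2 or P4. Not all macrophage markers went this way. Csf1r was the 1 measured member above 0, at 0.54. Itgam was bright and alike, at 4.56 in P3 and 4.52 in P4, with probes that disagreed in sign. Type 1 dendritic cell markers were lower in 14 of 18, with Clec9a, a receptor for dead cells, at least 41.3-fold lower and Flt3, the receptor for dendritic cell growth, at -5.49. Type 2 dendritic cell markers were lower in 7 of 13, among them Cd209d at -5.81 and Clec10a, at least 36.3-fold lower. Their median of -1.42 shrank to -0.29 under normexp background correction. In the authors' value table it was -0.16, with 2 of 7 genes lower. Markers of mature dendritic cells were lower in 7 of 13, with Fscn1, an actin-bundling protein of their dendrites, at least 29.9-fold lower. Ccr7, at 1.23, was the 1 member higher in P4. The listed chemokine genes Ccl22 and Ccl17 were not well above background in P3 or P4. All of these shares lay above the 8.97% of all genes. Every measured member of the 17 marker lists was well above background in P3. Bounds among them, such as 12 of the 23 macrophage members, entered the comparison through P3 alone. The comparison with all genes therefore describes these lists and tests nothing.

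Lymphoid and blood markers were also lower in P4. B cell markers were lower in 10 of 14, with Ms4a1, which encodes CD20, at -4.23. Its level in P3 was modest, at -0.31, and the defining gene Pax5 was not well above background in P3 or P4. Plasma cell markers were lower in 5 of 10, led by Jchain at -5.74, which stood at 1.05 in P3. Among erythroid genes the globins Hba-a1 and Hbb-bt were lower, at differences of -3.66 and -4.78, whereas Alas2 was not well above background in P3 or P4. Helper T cell markers were lower in 6 of 8, including Zbtb7b, the factor that fixes the CD4 lineage, at -1.75. Of the neutrophil markers S100a9 was lower, at -3.70, and Csf3r, at 6.67 in P3 and 7.10 in P4, was bright on every array. Stromal genes such as Col1a1 (-0.27) lay near background. Signal was also summed on a linear scale relative to the 75th percentile. The class II list reached 225 in P3 against 52.4 in P4, 53.6 in P2 and 65.6 in P1. In the same order the B cell list reached 14.6, 5.42, 5.59 and 6.18, and the type 1 dendritic cell list 135, 60.0, 23.7 and 41.9. P3 was not the highest array in every list. The macrophage and monocyte list reached 182 in P3, 69.0 in P4, 265 in P2 and 130 in P1. Mature dendritic cell markers reached 121, 120, 201 and 176 in that order. The part that these cells have in the T cell differences described further on was not tested. Medians of those lists are also given without the members that mark other cells where this removes several.

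Class II molecules present peptides to helper T cells, and dendritic cells, macrophages and B cells make them under the coactivator CIITA. Of the 12 measured class II genes, 8 were at least 2-fold lower in P4 and 0 higher, with a median of -3.19. H2-Ab1, a chain of the I-A molecule, stood at 6.44 in P3, 1.33 in P4, -0.60 in P1 and 1.09 in P2, a difference of -5.11. H2-Eb1 stood at 5.8 in P3, 1.21 in P4, -1.17 in P1 and 0.94 in P2, a difference of -4.59. P3 lay far above the rest for both. Ciita, which encodes the coactivator, stood at 2.28 in P3, -2.29 in P4, -2.96 in P1 and -3.12 in P2, a difference of -4.57. The other 4 members were within 2-fold. The protease gene Ctss differed by -0.38. H2-DMa, H2-Ob and H2-Oa, which help or restrain peptide loading, differed by -0.06, -0.07 and 0.08, at P4 levels of 1.51, 0.77 and 2.03.

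The promoters of class II genes carry a short Y box, read here as TGATTGG on either strand, which contains the reverse complement of CCAAT. Of the 10 measured class II genes with a RefSeq promoter, 7 (70.0%) held it within 250 bases upstream of the start, against 7.65% of 27025 promoters. Of these 7, 5 were lower in P4, and H2-Oa and H2-Ob were alike on both arrays. Of the genes without the Y box, Ifi30 was lower at -3.14, and H2-DMa and Ctss were within 2-fold. The bases just upstream of the start are shown for genes that differed (H2-Aa, H2-Eb1, H2-DMb1) and for H2-Ob, which did not, from RefSeq on GRCm38.p6, 5′ to 3′ on the gene's strand, with the Y box in capitals. They lie at chr17:34287824-34287933 (minus strand), chr17:34305757-34305866, chr17:34153081-34153190 and chr17:34238795-34238904 (plus strand). A match describes these letters and no binding.
H2-Aa: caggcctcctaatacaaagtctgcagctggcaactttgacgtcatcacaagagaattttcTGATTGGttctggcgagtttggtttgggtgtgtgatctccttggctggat
H2-Eb1: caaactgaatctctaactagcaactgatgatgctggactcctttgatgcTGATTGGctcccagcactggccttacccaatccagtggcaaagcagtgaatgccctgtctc
H2-DMb1: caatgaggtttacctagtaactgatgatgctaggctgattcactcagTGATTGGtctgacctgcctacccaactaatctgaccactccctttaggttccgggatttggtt
H2-Ob: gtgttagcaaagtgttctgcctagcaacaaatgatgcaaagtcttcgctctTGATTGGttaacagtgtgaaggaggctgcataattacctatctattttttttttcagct

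Before single lists, the 29 lists of T cell and general functions were read together. Of their 609 measured members, 149 (24.5%) were at least 2-fold lower in P4 and 38 (6.24%) higher, with a median of -0.25. In the 556 members that mark no other cell these were 118 (21.2%) and 35 (6.30%), with a median of -0.19. Lower calls were thus more frequent among the members than over all genes in both counts, while the share of higher calls lay near the 4.17% of all genes. Counts of the single lists below are to be read beside the all-gene shares, 8.97% lower and 4.17% higher.

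Genes of naive and stem-like T cells were often higher in P4. Of 34 measured members, 14 reached 2-fold with P4 higher and 4 with P4 lower, and 25 lay above 0, with a median of 0.56. Over all genes 4.17% were higher. Without the 4 members that also mark other cells, 13 of 30 were higher and the median was 0.60. Igfbp4, an insulin-like growth factor binding protein typical of naive T cells, stood at -4.21 in P3, 0.37 in P4, 1.53 in P1 and -1.54 in P2. It had the largest measured difference in this direction, 4.58 (24.0-fold), with P4 next to P1 and P3 lowest. Lef1, a transcription factor of Wnt signalling that keeps CD8 T cells in a naive or memory state, stood at 3.89 in P3, 5.43 in P4, 6.16 in P1 and 5.35 in P2, a difference of 1.54. Satb1, a chromatin organiser, stood at 2.80 in P3, 4.91 in P4, 5.38 in P1 and 5.17 in P2, a difference of 2.11. For both, P3 was the low array and the other 3 were nearer to each other. Treml2 (2.21), Als2cl (2.36) and Tdrp (1.95) likewise had P3 as the lowest array.

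The lymph node homing receptor gene Ccr7 stood at 5.39 in P3, 6.63 in P4, 7.29 in P1 and 6.74 in P2, a difference of 1.23. P4 lay between P3 and the CD62Lhigh arrays. Bach2, a repressor that restrains effector genes, differed by 1.13, Sox4 by 1.59, Actn1 by 1.02 and Dapl1 by 1.09. Tcf7, which encodes TCF-1, stood at 3.36 in P3, 3.77 in P4, 4.31 in P1 and 4.13 in P2. Its difference was 0.41, below 2-fold, as were those of Foxo1 (0.43), Foxp1 (0.59) and Klf2 (0.19). The survival receptor gene Il7r was alike, at 5.14 in P3 and 5.07 in P4, and lower than the 6.03 of P1. The members lower in P4 were Cxcr5, the receptor for B cell follicles, at -2.0, Lrrn3, Ly6c2 (-1.23) and Ly6c1 (-1.20). Lrrn3 was at least 3.25-fold lower and dim, and Cxcr5 and Ly6c2 also stand in marker lists of other cells. Ly6c1 and Ly6c2 are near-identical neighbours whose probes may share targets.

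The other genes higher by most in P4 were of mixed function. Of the 12 with the largest differences measured on both arrays, 11 were also at least 2-fold higher in P1 than in P2. Sorcs2, a sortilin-family sorting receptor, stood at -4.34 in P3, -0.11 in P4, 0.60 in P1 and -1.81 in P2, a difference of 4.23. Grm6, a metabotropic glutamate receptor gene, stood at -4.18 in P3, -0.48 in P4, -0.49 in P1 and -3.17 in P2. Its difference was 3.70, and 1.20 for its other probe. Slc6a19, a transporter of neutral amino acids, stood at -4.19 in P3, -0.85 in P4, -0.28 in P1 and -3.17 in P2, a difference of 3.33. In all 3, P1 and P4 were the bright arrays and P3 was the lowest. Ampd1, an AMP deaminase, differed by 3.32, Zcchc12 by 3.26, Trnp1 by 3.21, the myosin gene Myo5b by 2.99 and Eng, which encodes the TGF-beta coreceptor endoglin, by 2.75. Ccnjl and Ldhd differed by 3.17 and 2.78. Their P4 levels were -1.95 and -2.46. Of the 6 largest bounds, 2 were at least 2-fold higher in P1 than in P2 and 2 lower, and over all 583 genes higher in P4 113 (19.4%) were higher in P1. The Wnt ligand gene Wnt5b was at least 18.1-fold higher and Amigo2 at least 9.77-fold, with P1 levels of -0.61 and -1.34. Krt13, a keratin gene, and the olfactory receptor gene Olfr785 were at least 14.0-fold and at least 13.6-fold higher and well above background in P2 as well, but not in P1. Aqp11 and Dio1 were at least 11.3-fold and at least 7.16-fold higher, at P4 levels of -1.87 and -2.52. Both lay close to background on the other 3 arrays, and the other Aqp11 probe differed by 1.40.

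**Figure D2:**
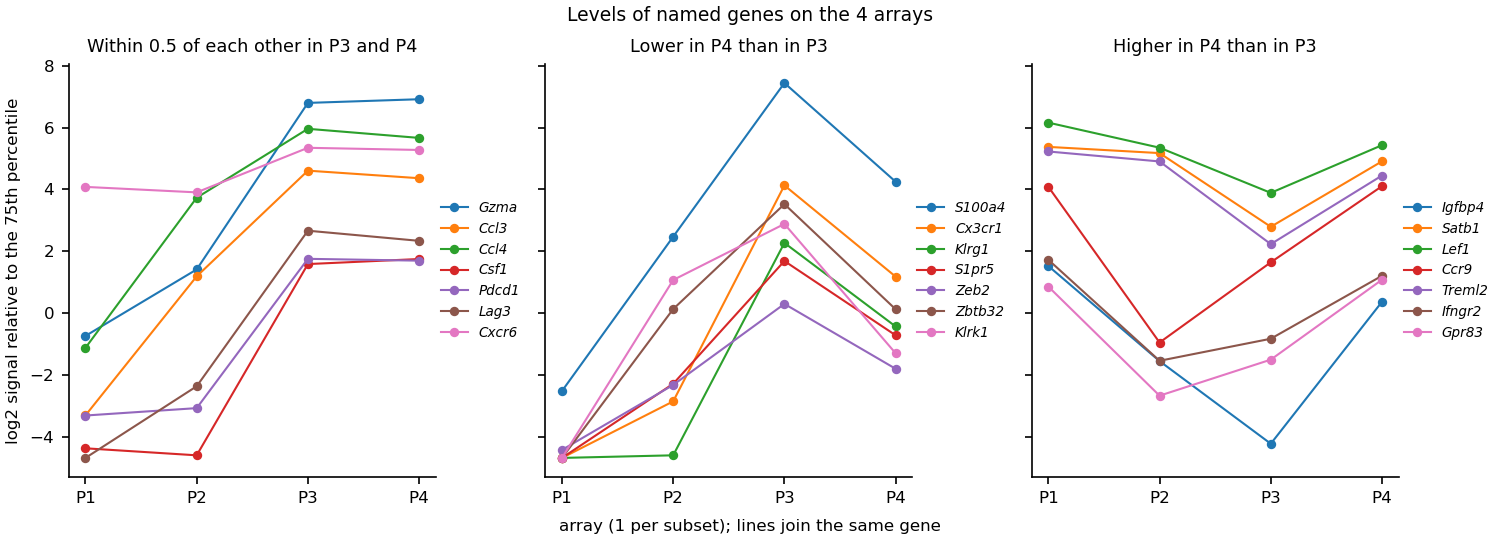
Levels of 21 named genes on the 4 arrays as log2 signal relative to the 75th percentile, with 1 array per subset and a line joining the values of a gene. In the left panel P3 and P4 lie within 0.5 of each other, in the middle panel P3 is the highest array, and in the right panel P4 lies above P3 by 1.54 (Lef1) to 4.58 (Igfbp4). Values not well above background are drawn at or above the array's lowest level well above background.

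Most killing genes were within 2-fold between the CD62Llow subsets. Of 15 measured cytotoxic genes, 3 were at least 2-fold lower in P4 and 0 higher, with a median of -0.52. That share of lower genes exceeded the 8.97% of all genes, and 13 of the 15 lay below 0. Gzma, which encodes granzyme A, stood at 6.8 in P3, 6.91 in P4, -0.73 in P1 and 1.42 in P2, a difference of 0.12. Gzmb stood at 5.11 in P3, 4.09 in P4, -2.57 in P1 and -0.64 in P2, a difference of -1.01. Granzyme A was thus equal within spot noise. The P4 level of Gzmb was 2.02-fold below that of P3 and far above both CD62Lhigh arrays. Gzmk differed by -0.88, the pore-forming protein gene Prf1 by -0.57, Fasl by -0.71 and the granule genes Srgn and Nkg7 by -0.44 and -0.38. Each of these was lower in P4 by under 2-fold. Gzmm did not follow the other granzymes. It stood at 2.90 in P3, -0.70 in P4, -0.91 in P1 and 4.76 in P2, a difference of -3.60 (12.2-fold), with the CD44high arrays high and the CD44low arrays low. Serpinb6b, a serpin, was lower by a difference of -1.06.

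Chemokine and cytokine genes split into shared and P3-high groups. The chemokines that activated CD8 T cells make were alike: Ccl3 differed by -0.24, Ccl4 by -0.29, Xcl1 by -0.27 and Ccl5 by 0.50. Ccl3 stood at 4.61 in P3, 4.36 in P4, -3.29 in P1 and 1.20 in P2. Both CD62Llow arrays were above both CD62Lhigh arrays. Of the 9 measured chemokine genes, 5 were lower in P4. These were Cxcl9, at least 36.7-fold lower, Ccl1, at least 19.1-fold lower, Cxcl16 at -3.60, Ccl9 at -3.01 and Cxcl10 at -1.63. Cxcl9, Cxcl16 and Ccl9 are known products of myeloid cells, whose markers were high in P3. Ifng, the macrophage-activating cytokine gene, stood at 6.43 in P3, 5.12 in P4, 0.69 in P1 and 4.67 in P2, a difference of -1.31. Penk, the enkephalin precursor, differed by -1.17, with P3 and P4 levels of 3.63 and 2.46. Il21, a helper cytokine, differed by -1.71. The macrophage growth factor gene Csf1 stood at 1.59 in P3, 1.75 in P4 and -4.36 in P1 (not well above background in P2), a difference of 0.16. Il10 stood at 0.01 in P3 and 0.03 in P4 (not well above background in P1 and P2), a difference of 0.02. Both lay high on the CD62Llow arrays and were equal between them within spot noise. Tnf (-0.16) and Lta (0.78) were within 2-fold.

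Over all measured genes, 48 had P3 and P4 levels within 0.5 of each other and a P4 level at least 4-fold above both CD62Lhigh arrays. Among the members of the T cell lists, a stricter rule was used, with the P3 level also at least 4-fold above both. It was met by 11 members: Ccl3, Cd200r1, Cish, Csf1, Gcnt1, Gzma, Hic1, Il10, Il2ra, Lag3 and Pdcd1. They were chosen for that pattern, so it supports nothing further. They include coinhibitory receptor genes (Pdcd1, Lag3, Cd200r1), the high-affinity interleukin 2 receptor chain Il2ra and the feedback inhibitor of its signal, Cish.

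Natural killer receptor genes were largely lower in P4. Of 27 measured killer lectin and NK receptor genes, 18 were at least 2-fold lower, against 8.97% of all genes, and 0 higher, with a median of -1.65. Of the 27, 9 also mark natural killer or other cells, and without them 9 of 18 were lower with a median of -0.85. Klrk1, which encodes the activating receptor NKG2D, stood at 2.89 in P3, -1.29 in P4 and 1.08 in P2 (not well above background in P1), a difference of -4.18. Klrg1, a marker of terminal effector cells, stood at 2.27 in P3 and -0.42 in P4 (not well above background in P1 and P2), a difference of -2.70. P3 was the brightest array for both. Tyrobp, the adaptor DAP12 through which several of these receptors signal, stood at 3.35 in P3, -1.11 in P4 and -0.97 in P2 (not well above background in P1), a difference of -4.47. Myeloid cells express this adaptor too. Ly49 genes had another order: Klra7 stood at 1.60 in P3, -1.56 in P4, -4.26 in P1 and 4.79 in P2, a difference of -3.16. Klra4 and Klra16 differed by -3.56 and -2.92. P2, and not P3, was brightest for these 3 genes. Ly49 genes are near-identical and their probes can share targets. Ncr1, the defining receptor gene of natural killer cells, was not well above background in P3 or P4. Klrd1 (-0.50), Il2rb (-0.30) and Hcst (-0.17) were within 2-fold, and Klra1 (0.91) and Klrb1a (0.95) had the highest values of the list.

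**Figure D3:**
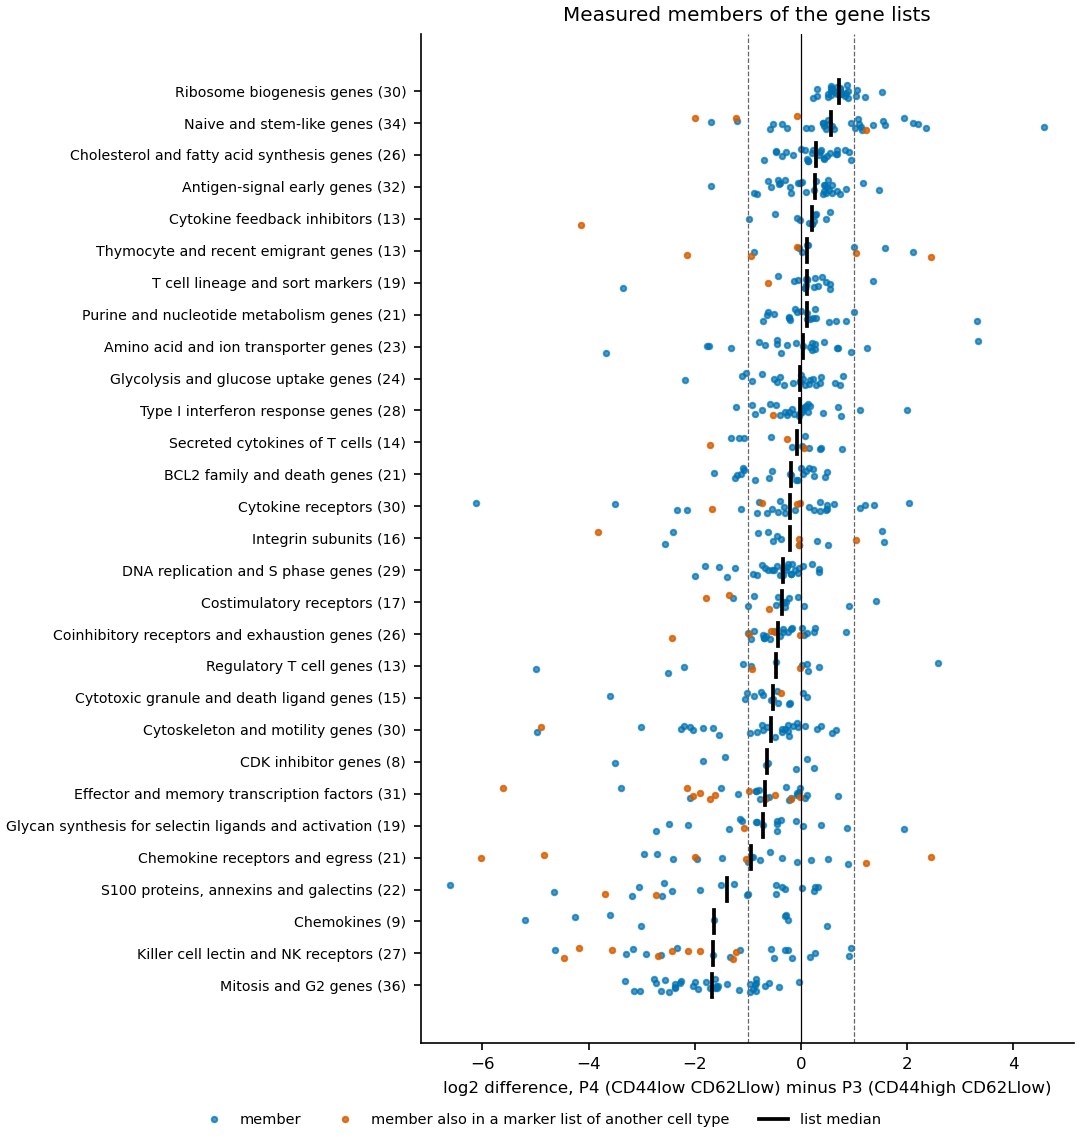
Difference P4 minus P3 of every measured member of 29 lists of T cell and general cell functions, with the number of measured members in parentheses. Points are genes, orange points are members that also mark another cell type, black bars are list medians and dashed lines mark 2-fold. Mitosis and killer receptor lists have the lowest medians, and ribosome biogenesis and naive lists the highest.

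Genes for tissue migration went both ways. Of 21 measured chemokine receptor and egress genes, 9 were at least 2-fold lower, 2 were higher and 16 lay below 0, with a median of -0.94 and of -0.90 without the 6 marker members. The median shrank to -0.23 under normexp background correction and to -0.13 in the authors' value table, where 2 of 10 genes were higher and 2 lower. Cx3cr1, the fractalkine receptor of cytotoxic effector cells, stood at 4.13 in P3, 1.19 in P4 and -2.84 in P2 (not well above background in P1), a difference of -2.95. S1pr5, a sphingosine phosphate receptor of terminal effector and natural killer cells, stood at 1.69 in P3, -0.71 in P4 and -2.27 in P2 (not well above background in P1), a difference of -2.40. Cxcr3, which guides T cells into inflamed tissue, stood at 5.49 in P3, 3.54 in P4, 1.73 in P1 and 5.11 in P2, a difference of -1.95. In all 3, P4 lay below P3, and for Cxcr3 it also lay below P2. Ccr2 differed by -4.85 and Ccr6 was at least 65.5-fold lower. Both are also expressed by cells whose markers were high in P3. Cxcr6, a receptor of tissue-resident cells, was alike, at 5.35 in P3 and 5.28 in P4. Ccr9, which directs T cells to the gut, stood at 1.65 in P3, 4.11 in P4, 4.09 in P1 and -0.94 in P2. Its difference of 2.46 was the highest of the list, and P4 lay beside P1. S1pr1 (0.51) and Cxcr4 (0.89) were higher in P4 by under 2-fold.

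Among adhesion genes, Itgb1, the beta chain of the VLA integrins, stood at 5.06 in P3, 2.49 in P4, 1.82 in P1 and 3.94 in P2, a difference of -2.56. Itgax, which encodes CD11c of dendritic cells and some effector T cells, differed by -3.82. The lymphocyte integrin genes Itgal (-0.53), Itgb2 (-0.62) and Itga4 (-0.80) were lower by under 2-fold. Itgae, which encodes CD103, the receptor for epithelial cadherin, stood at 2.50 in P3, 3.53 in P4, 3.51 in P1 and 0.09 in P2, a difference of 1.04. Both CD44low arrays were high for Itgae. Glycan genes for selectin ligands were lower in 7 of 19 and higher in 1, with a median of -0.72. Fut7, the fucosyltransferase of selectin ligands, differed by -2.72, but its spot lay in a locally bright area of the P3 array. St3gal6 and Chst11 differed by -1.14 and -1.11. St8sia1, a sialyltransferase of gangliosides, was higher in P4 by 1.94. Gcnt1, which builds branched sugars on activated T cells, was alike (-0.38).

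T cells express calcium-binding S100 proteins, annexins and galectins on effector differentiation, and myeloid cells also express them. Of 22 measured members, 13 were lower in P4, against 8.97% of all genes, and 0 higher. The median was -1.38, and -1.14 without the 2 neutrophil markers. S100a4 stood at 7.44 in P3, 4.25 in P4, -2.51 in P1 and 2.48 in P2, a difference of -3.19. S100a6 stood at 6.55 in P3, 4.13 in P4, -2.71 in P1 and 3.43 in P2, a difference of -2.42. Both rank P3, P4, P2 and P1 from high to low, so P4 was well above P1 and still below P3. Lgals1 (-2.62), Lgals3 (-3.05) and Anxa2 (-1.90) were lower in P4, and Anxa1, at least 25.0-fold lower, was not well above background there. Cytoskeleton genes were lower in 10 of 30 (median -0.56). Plek, which binds membrane phosphoinositides, differed by -2.26, the scaffold gene Ahnak by -2.08, the motor gene Myo1f by -1.53 and Rhoc by -1.84. The common actin genes Actb (0.59) and Actg1 (-0.06) did not share this direction.

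Transcription factors of effector and memory cells were lower in 10 of 31 measured members, against 8.97% of all genes, and higher in 0. Their median was -0.67. Without the 11 members that also mark other cells, 4 of 20 were lower and the median was -0.44. Tbx21, which encodes T-bet, the driver of cytotoxic effector genes, stood at 4.06 in P3, 2.45 in P4, -0.37 in P1 and 3.75 in P2, a difference of -1.61. Zeb2, which acts with T-bet in terminal effector cells, stood at 0.30 in P3, -1.79 in P4, -4.41 in P1 and -2.31 in P2, a difference of -2.10. Zbtb32 stood at 3.53 in P3, 0.13 in P4 and 0.14 in P2 (not well above background in P1), a difference of -3.40. For all 3, P3 was highest and P1 lowest. Hopx (-1.51), Rora (-1.90), Runx2 (-2.03) and Bhlhe40 (-1.18) were lower as well. Irf8, at -1.71, and Batf3 are also dendritic cell genes, and Tbx21, Rora and Runx2 also stand in marker lists of other cells. Eomes, the partner of T-bet in memory cells, stood at 3.77 in P3, 3.30 in P4, 1.31 in P1 and 3.62 in P2, a difference of -0.48. Prdm1, which encodes Blimp-1, differed by -0.97. Id2 (-0.19), Runx3 (-0.07) and Bcl6 (-0.04) were alike.

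Coinhibitory receptor genes mark repeatedly stimulated T cells. Most were within 2-fold between the subsets, as were most of all measured genes. Of 26 measured members, 2 were lower in P4, 0 were higher and 20 lay below 0, with a median of -0.43. The share of lower members lay near the 8.97% of all genes. Lag3 stood at 2.67 in P3, 2.34 in P4 and -2.36 in P2 (not well above background in P1), a difference of -0.33. Havcr2, which encodes TIM-3, stood at 1.94 in P3 and 1.24 in P4 (not well above background in P1 and P2), a difference of -0.70. Tigit stood at 1.32 in P3, 0.31 in P4, -3.83 in P1 and -2.15 in P2, a difference of -1.0. All 3 were above both CD62Lhigh arrays in P3 and in P4. The nuclear factor Tox, linked to exhaustion, differed by -0.88 and Ctla4 by -0.93. The member lower by most was Lair1, a collagen receptor, at -2.42, and P4 was its lowest array. Plasmacytoid dendritic cells express Lair1 too. Of 17 costimulatory genes, 3 were lower, namely Slamf7 (-1.78), Tnfrsf4, which encodes OX40 (-1.35), and Tnfsf14 (-1.27). Slamf7 is also a plasma cell gene, and Tnfrsf4 also stands in the helper T cell marker list. Tnfrsf14 was higher in P4, at 1.41. Tnfrsf9, the 4-1BB receptor gene that recent antigen signals raise, stood at 2.73 in P3, 3.63 in P4, -0.18 in P1 and 0.09 in P2, a difference of 0.90.

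Cytokine receptor genes went both ways, with 4 of 30 higher in P4 and 6 lower. Il18r1 and Il18rap, the chains of the interleukin 18 receptor that lets memory T cells respond without antigen, differed by -2.33 and -3.49. Il18r1 stood at 3.53 in P3, 1.20 in P4, 2.16 in P1 and 3.98 in P2. Both CD44high arrays were above both CD44low arrays. Ifngr2, the limiting chain of the interferon gamma receptor, stood at -0.82 in P3, 1.21 in P4, 1.73 in P1 and -1.53 in P2, a difference of 2.03. It had the reverse order, with both CD44low arrays high. The interleukin 6 receptor chains Il6st and Il6ra were higher in P4 by 1.38 and 1.12, and Tgfbr3 by 1.21. Il2ra (-0.01), Il2rb (-0.30), Il2rg (0.16) and Il12rb1 (-0.32) were within 2-fold. Il10ra differed by -0.82 and Il3ra by -1.14. Among 13 feedback inhibitors of cytokine signals, Socs2 was lower in P4 at -4.15, and it also marks mature dendritic cells. The other 12, Cish (-0.48), Socs1 (0.55) and Socs3 (-0.01) among them, stayed under 2-fold.

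Of 21 measured survival and death genes, 6 were lower in P4, against 8.97% of all genes, and 0 higher. Casp1, the inflammasome protease, stood at 3.81 in P3, 2.62 in P4, -0.40 in P1 and -0.17 in P2, a difference of -1.19. Casp4, another inflammatory caspase gene, differed by -1.63. Both were also above both CD62Lhigh arrays in P4. Bcl2l1, which encodes the survival protein BCL-XL, differed by -1.08, the death-promoting genes Pmaip1 and Bik by -1.12 and -1.08, and Bcl2a1d by -0.86. Bcl2 (0.45) and Mcl1 (0.01) were under 2-fold.

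Of 32 genes raised early by antigen receptor signals, 2 were higher in P4 and 1 lower. Their median was 0.27, which the authors' value table put at -0.03, so no direction is drawn from it. Egr3 stood at -0.52 in P3, 0.95 in P4, 0.17 in P1 and -0.82 in P2, a difference of 1.47, and Myc at 2.11 in P3, 3.28 in P4, 3.54 in P1 and 3.46 in P2, a difference of 1.17. P4 was the brightest array for Egr3, whereas for Myc P3 was the low array and the other 3 lay close together. Egr2 (0.58), Nr4a1 (0.24) and Fos (0.58) were under 2-fold. Zc3h12a, which encodes the RNase Regnase-1, was the only member at least 2-fold lower in P4, at -1.69, and stood at -1.37 in P3, -3.05 in P4, -0.63 in P1 and -0.32 in P2. Of 28 type I interferon response genes, 2 were higher and 1 lower (median -0.02). Oas2 stood at 0.15 in P3, 2.15 in P4, 2.95 in P1 and 1.74 in P2, a difference of 2.0, Oasl1 differed by 1.11 and Rsad2 by -1.22. Isg15 (0.10) and Irf7 (-0.03) were alike, so the antiviral genes did not share a direction.

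The 13 measured thymocyte and recent emigrant genes held 5 that were higher in P4 and 1 that was lower. Dntt, the terminal transferase of developing T cells, stood at -0.35 in P3, 0.65 in P4, 0.53 in P1 and -2.53 in P2, a difference of 1.00, with P1 and P4 the bright arrays. The other members higher in P4 were Ccr9, Satb1, Sox4 and Itgae. Rag1, Rag2 and Ptcra, which thymocytes need for receptor assembly, were not well above background in P3 or P4. Of 13 regulatory T cell genes, 4 were lower in P4 and 1 higher. Nrp1, a receptor also found on dendritic cells, differed by -2.51, and Foxp3, the lineage factor, stood at -1.57 in P3, -2.50 in P4, -3.50 in P1 and -3.81 in P2, a difference of -0.92. Gpr83 stood at -1.50 in P3, 1.09 in P4, 0.86 in P1 and -2.66 in P2. Its difference was 2.58, and both CD44low arrays were high, as for Itgae and Ifngr2.

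Most genes of mitosis were lower in P4. Of 36 measured members, 25 were at least 2-fold lower in P4, against 8.97% of all genes, and 0 were higher. All 36 lay below 0, with a median of -1.66, and 8 of the 36 were bounds. None of them is in a marker list, but dividing cells of any type express them, and the markers of other cells given above were high on the same array. Ccnb2, a cyclin of mitotic entry, stood at 2.06 in P3, -1.26 in P4, -1.86 in P1 and 0.07 in P2, a difference of -3.32. Mki67, the proliferation marker, stood at 2.63 in P3, 0.26 in P4, -1.54 in P1 and 0.26 in P2, a difference of -2.37. Birc5, which encodes survivin of the chromosomal passenger complex, stood at 2.80 in P3, 0.04 in P4, -0.41 in P1 and 0.97 in P2, a difference of -2.76. P3 was the brightest array for each, and P4 lay below P2 for Ccnb2 and Birc5 and beside it for Mki67. Ube2c (-3.14), Ccna2 (-3.04), Aurkb (-2.63) and Cdk1 (-2.37) were lower too. Aurka, the centrosome kinase gene, was alike at 0.70 and 0.67. The list's median level was -0.53 in P3, -2.36 in P4, -2.56 in P1 and -1.95 in P2.

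Genes of DNA replication differed less. Of 29 measured S phase genes, 5 were lower in P4, against 8.97% of all genes, and 0 higher, with a median of -0.34. The 5 were the nucleotide synthesis genes Tk1 (-1.99), Rrm2 (-1.80) and Tyms (-1.54) and the origin factors Mcm10 (-1.38) and Cdc6 (-1.24). The replicative helicase genes Mcm3, Mcm5, Mcm6 and Mcm7 differed by -0.33, -0.28, -0.17 and 0.21, and Pcna by -0.24. The list's median level was 1.65 in P3 and 1.17 in P4. Among CDK inhibitors, which hold the cell cycle, Cdkn1a, encoding p21, differed by -1.85 and Cdkn2b by -1.42. The cell cycle phosphatase gene Cdkn3 differed by -3.51. Cdkn1b, encoding p27, was alike (-0.09).

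Promoters of mitotic genes are known for CCAAT boxes and for a short cell cycle element, read here as TTTGAA or TTTAAA, all on either strand. TTTAAA is its own reverse complement, and no match of these motifs contains another. Among the 28 measured mitosis genes with a RefSeq promoter, 23 (82.1%) held CCAAT within 250 bases upstream of the start, against 34.5% of 27025 promoters. The element was present in 14 (50%, against 25.5%), and both kinds together in 12 (42.9%, against 9.0%). Of the 24 S phase genes with a promoter, 15 (62.5%) held CCAAT, 6 the element and 3 both. Mitosis genes with both had a median difference of -2.10, with 9 of 12 lower in P4, and those without both -1.57, with 10 of 16 lower. Upstream bases are shown for 4 genes that were lower in P4 (Ccnb2, Ube2c, Cdk1, Top2a) and for Aurka, which was not, from RefSeq on GRCm38.p6, 5′ to 3′ on the gene's strand, with CCAAT and the element in capitals. They lie at chr9:70421555-70421734 (minus strand), chr2:164769749-164769928 (plus), chr10:69352913-69353092, chr11:99024190-99024369 and chr2:172370571-172370750 (all minus).
Ccnb2: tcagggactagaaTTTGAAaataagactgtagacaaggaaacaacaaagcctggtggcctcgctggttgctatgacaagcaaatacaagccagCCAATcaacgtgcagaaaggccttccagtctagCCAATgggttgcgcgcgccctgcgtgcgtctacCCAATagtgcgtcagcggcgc
Ube2c: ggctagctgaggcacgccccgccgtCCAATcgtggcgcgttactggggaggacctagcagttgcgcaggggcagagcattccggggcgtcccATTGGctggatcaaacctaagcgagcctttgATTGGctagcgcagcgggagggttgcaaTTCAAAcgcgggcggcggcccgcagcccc
Cdk1: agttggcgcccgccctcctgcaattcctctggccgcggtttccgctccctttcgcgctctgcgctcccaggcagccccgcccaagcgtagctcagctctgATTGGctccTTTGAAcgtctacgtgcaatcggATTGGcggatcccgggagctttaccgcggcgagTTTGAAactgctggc
Top2a: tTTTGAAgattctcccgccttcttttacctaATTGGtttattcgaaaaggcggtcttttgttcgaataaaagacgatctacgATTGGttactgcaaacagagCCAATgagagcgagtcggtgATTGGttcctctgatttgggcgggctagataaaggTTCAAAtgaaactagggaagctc
Aurka: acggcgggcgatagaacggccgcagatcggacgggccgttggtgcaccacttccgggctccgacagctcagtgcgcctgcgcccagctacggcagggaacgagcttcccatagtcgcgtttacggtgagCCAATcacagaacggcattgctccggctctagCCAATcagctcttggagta
In these windows Aurka held 2 CCAAT boxes and no cell cycle element, and the other 4 held both. A match is a description of letters, and 10 mitosis genes without both kinds were lower as well.

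**Figure D4:**
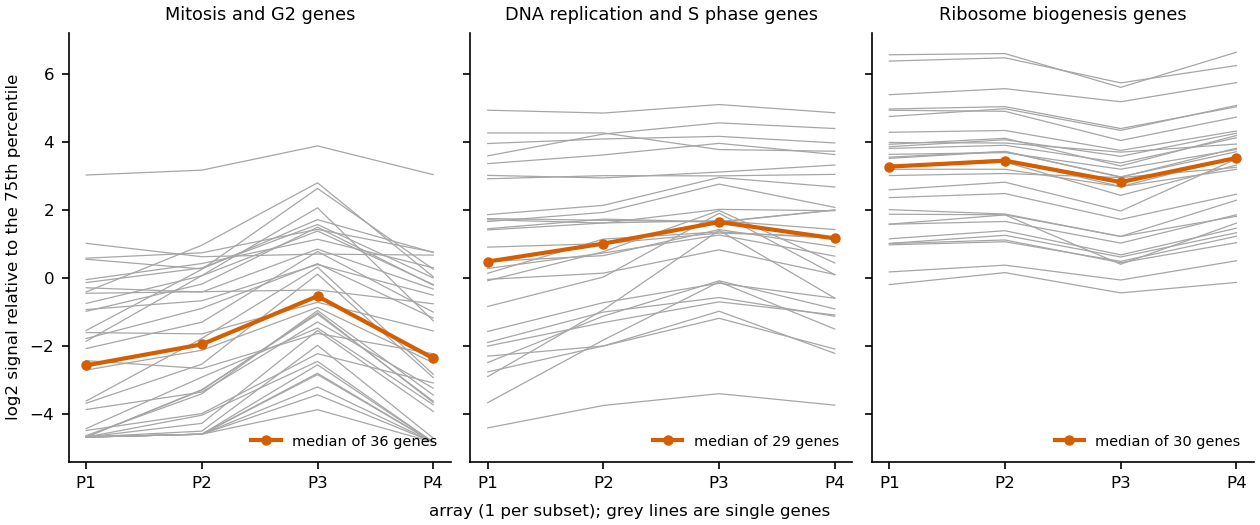
Levels of the measured members of 3 lists on the 4 arrays as log2 signal relative to the 75th percentile, with a grey line for each gene and the median in orange. Mitosis genes peak in P3 (median -0.53 against -2.36 in P4), S phase genes differ less (1.65 against 1.17), and ribosome biogenesis genes dip in P3 (2.82 against 3.53). Values not well above background are drawn at or above the array's lowest level well above background.

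Ribosome biogenesis genes went the opposite way. Of 30 measured members, 30 lay above 0, from 0.24 (Nop10) to 1.53 (Srm), with a median of 0.72, and 4 reached 2-fold. These were Srm, which makes spermidine, Npm3, Rrp9 and Fbl. Fbl, the methyltransferase of ribosomal RNA, stood at 5.6 in P3, 6.63 in P4, 6.56 in P1 and 6.59 in P2, a difference of 1.03. Npm1, a nucleolar chaperone, stood at 5.73 in P3, 6.24 in P4, 6.37 in P1 and 6.47 in P2, a difference of 0.51. Nop56 stood at 4.39 in P3, 5.03 in P4, 4.96 in P1 and 5.04 in P2, a difference of 0.64. In each, P3 was the low array and P4 stood beside P1 and P2. The list median lay between 0.62 and 0.72 under the alternatives, whereas the median over all genes lay between -0.03 and 0.25.

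Metabolic genes were largely alike. The median of the glycolysis list was -0.01, and 3 of its 24 genes were lower in P4 (Eno2 at -2.17, Aldoc at -1.10, Slc16a3 at -1.04) and 0 higher, and the common enzyme genes Ldha (0.36), Pgk1 (0.28) and Gapdh (-0.31) within 2-fold. Cholesterol and fatty acid synthesis genes lay above 0 in 20 of 26, with a median of 0.28, but none was 2-fold apart. They included Elovl6 (0.94) and Srebf2 (0.83). Purine genes had a median of 0.11, with Gart (1.00) and Ampd1 at least 2-fold higher. Of 23 transporter genes, 4 were lower in P4, among them Slc43a1 (-1.77) and the potassium channel gene Kcnk5 (-1.74), and 2 were higher, Slc6a19 and the zinc exporter gene Slc30a4 (1.26).

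P1 and P2 differ in CD44 as P4 and P3 do, and they share no array with them. Set beside this pair, 113 of the 583 genes higher in P4 were also at least 2-fold higher in P1 than in P2, the 19.4% given above, and 301 of the 1256 genes lower in P4 (24.0%) were also lower in P1. Over all 13997 genes these shares were 1.84% and 3.91%. Across the 11833 genes that passed as well above background on each of the 4 arrays, the differences of both pairs correlated with a Pearson r of 0.45 and a Spearman rho of 0.31. This is a description across genes, which are not independent, and all 4 arrays lie on 1 slide. Gzmm differed by -5.67 in P1 minus P2, beside -3.60 in P4 minus P3. Plbd1, Wdfy4, H2-Ab1 and H2-Eb1 were lower on the CD44low array of each pair, with -2.72, -2.38, -1.69 and -2.10 in P1 minus P2. P3 lay far above P2 for these 4 genes. On the other side, Igfbp4 (3.07), Sorcs2 (2.41), Gpr83 (3.52) and Cnn3, an actin-binding protein gene (2.76, beside 2.51), were higher on both CD44low arrays.

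The lists differed in whether the pairs went alike. Killer receptor genes had a median of -3.09 in P1 minus P2, with 19 of 27 lower in P1, beside -1.65 here. Mitosis genes had -0.45 with 9 lower, beside -1.66. S100, annexin and galectin genes had -0.34, beside -1.38. Naive genes had 0.23 with 4 higher and 5 lower in P1, beside 0.56 with 14 higher and 4 lower here. Ribosome biogenesis genes had -0.11 with 0 higher and 0 lower, beside 0.72. Class II genes had 0.09 with 1 higher and 3 lower, beside -3.19. The differences between the pairs were not tested, since each rests on 1 array a side.

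**Figure D5:**
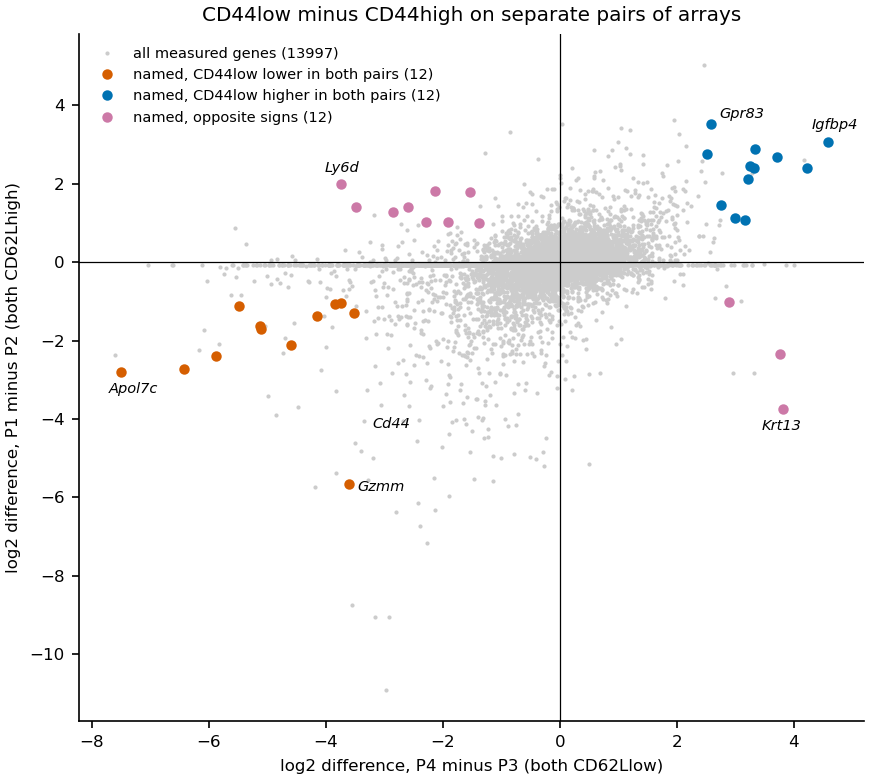
Difference of each measured gene between the CD62Llow arrays (P4 minus P3, horizontal) and between the CD62Lhigh arrays (P1 minus P2, vertical), both log2 and both CD44low minus CD44high. Coloured points are the 12 named genes lower on the CD44low array of each pair, the 12 higher on it in each pair and 12 with opposite signs. The line of points just below 0 on the vertical axis holds genes not well above background in P1 and P2, whose difference there is that of the arrays' lowest levels.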

How the data were processed

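Total RNA of 4 CD8 T cell subsets, 1 array each, was turned into Cy3-labelled cRNA and read on Agilent mouse arrays of 1 colour. The authors scanned the arrays and deposited spot tables with processed intensity (background-subtracted by Agilent Feature Extraction 11.0.1.1, per the submitters' processing notes). A value table of log2 signals was also deposited by the authors; its 26188 probes have a median of 8.85 in every column and correlate with the log2 processed intensity at r of at least 0.999, and the sources used here do not say how its values were scaled.

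From the spot tables, control spots and spots with an outlier mark were dropped, repeated spots were averaged, and log2 signals were scaled to each array's 75th percentile. No spot was saturated. Dim values below a floor, the array's faintest signal that passed as well above background, were raised to it. Of 56605 probes, 32994 (58.3%) were named through the files and RefSeq, and each gene took its probe with the highest mean level. With 1 array a side no test between subsets exists, and genes were called by 2-fold size. A spot was called locally bright where several neighbours within 32 position units were raised above the other arrays. Alternatives were other scaling, normexp (offset 50, limma 3.58.1 in R 4.3.3), filters, probe choice, the value table and a 4-fold threshold; scaling by the 75th percentile over probes was chosen after seeing the data. Python 3.11.15, numpy 2.4.6, pandas 2.3.3, scipy 1.17.1 and matplotlib 3.10.9 were used, and the scripts were tested on simulated data.

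Named genes are, per direction, the 6 largest bounds and the 12 largest differences among genes with signal on both arrays; the 12 per direction that also differ 2-fold the same way between P1 and P2, and the 12 that differ the opposite way; and up to 6 members per direction of each list, with every member of the lineage list and of lists of at most 20. Genes left out of the size ranks had probes that differ in sign, clone names or spots in locally bright areas. Other list members were named with their values known. The 29 gene lists, the 17 marker lists and the comparison itself were chosen with earlier results of these data known. RefSeq promoters, 250 bases upstream on GRCm38.p6, were matched by symbol. Some genes of the lists are not reported here.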

Additional observations from a re-analysis of the deposited data

Results flagged for a closer look

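Of the genes at least 2-fold apart between P4 and P3, 21 were at least 2-fold apart in the opposite direction between the CD62Lhigh arrays. Of these, 12 are named, and in each case the difference between the pairs was not tested, since it rests on 1 array a side.

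Genes of antigen-presenting cells stood among them. Ly6d, a surface antigen of B cell and plasmacytoid dendritic cell precursors, was lower in P4 than in P3 at -3.74 and higher in P1 than in P2 at 1.99. Tmem176b, a cation channel gene of dendritic cells, was at -3.48 in P4 minus P3 and 1.41 in P1 minus P2. Cd81, a tetraspanin gene, was at -2.59 and 1.40. P3 was the brightest array for all 3.

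The other lower genes were the integrin gene Itga7, at -2.85 in P4 minus P3 and 1.28 in P1 minus P2, and the collagen receptor gene Ddr1, at -1.92 and 1.02. Cutal was at -1.39 and 1.00. Pdzd4 was at -1.53, and its P2 signal was not well above background, so that its 1.78 in the other pair is a bound. Aunip, at -2.29 and 1.03, and Hebp1, at -2.14 and 1.8, were not well above background in P4, so that the first value of each is a bound. Hebp1 was not well above background in P2 either, and its second value is a bound too.

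Of the genes higher in P4, Pomgnt2, a glycosyltransferase gene, was at 2.89 in P4 minus P3 and -1.02 in P1 minus P2. It was present in P1, P2 and P4 and low in P3. The keratin gene Krt13 (3.81, -3.75) and the olfactory receptor gene Olfr785 (3.76, -2.34) were well above background in P2 and P4 and not in P1 or P3, so that all 4 values are bounds.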

How the results depend on the processing

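Each subset has 1 array, so no value has an error between mice and no array could be left out in turn. No paired analysis was possible because the labels give no replicate numbers and each subset is 1 array. The 583 higher and 1256 lower genes moved by over 1.5 times under these settings: normexp background correction gave 340 and 688, no filter and no floor 1266 and 1918, the authors' values, which cover fewer genes, 288 and 631, and a 4-fold threshold 98 and 512. Requiring signal on both arrays left 787 lower genes, since bounds drop out. Both counts stayed within 1.5 times under quantile normalization, scaling to the median (496 and 1342), the mean over probes, kept outlier spots, leaving out locally bright areas, and the added 75th percentile over probes. Scaling moved the median over all genes by under 0.1. Over all called genes, normexp turned the sign of 1 higher and 26 lower genes and the mean over probes that of 2 and 7, and the other settings turned none. Among the 767 genes named or listed, 297 of them 2-fold apart, 2 reversed. Areg, a bound of -1.22, became 0.0097 under normexp, and the cause was not tested. Siglech, at 1.29, became -1.02 as a mean over its probes, which differ in sign. Of 46 list medians, 16 were beyond 2-fold and none of the 46 reversed from beyond 2-fold to the other sign. Small medians did change sign under some settings, those of the lineage, cytokine, antigen-signal, glycolysis, transporter, neutrophil, platelet, mast cell and stromal lists. The mitosis median lay between -2.06 and -1.01, that of killer receptors between -1.90 and -0.59, and that of naive genes between 0.50 and 0.69. Near background the half-width from spot noise, 0.63, limits what a difference can show.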

Other observations

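Other cell type lists had these values. Plasmacytoid dendritic cell markers were at least 2-fold lower in P4 in 9 of 15 measured members and higher in 2, with a median of -2.03. The lower ones included Cox6a2 (-5.49) and the transcription factor Spib (-4.94), which B cells share. The higher ones were Ccr9 and Siglech, and Siglech was bright on every array (4.34 in P3, 5.63 in P4) with probes that differed in sign. Natural killer cell markers were lower in 9 of 12 (median -1.76), and 10 of the 12 were lower in P1 than in P2. Gamma delta and innate-like T cell markers were lower in 5 of 10, among them Zbtb16, which encodes PLZF (-1.81), and Cd163l1 (-2.39), whose brightest array was P2. Innate lymphoid cell markers were lower in 5 of 11, including Klrg1 and Rora, which effector CD8 T cells also express. Kit, the stem cell factor receptor gene, was higher in P4 by under 2-fold (0.75), and both CD62Llow arrays lay far above both CD62Lhigh arrays. Platelet markers were lower in 1 of 5, mast cell markers in 0 of 5 and stromal markers in 4 of 8, and their defining genes Itga2b, Cpa3 and Pdgfrb were not well above background in P3 or P4.

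Car2, a carbonic anhydrase gene listed among erythroid genes, was bright on both CD62Llow arrays. It stood at 2.51 in P3, 1.53 in P4, -0.45 in P1 and -1.48 in P2, a difference of -0.98, whereas the globin genes were high in P3 alone. Of the other cytokine genes, Ltb, which encodes lymphotoxin beta, was bright on both arrays, at 6.83 in P3 and 7.19 in P4, and Tgfb1 stood at 1.33 and 1.40. Il2, Il17a, Il22 and Il3 were well above background on 1 of both arrays at most, and Il4, Il5, Il13 and Il17f on neither. The median of 16 integrin genes was -0.21, and 3 were higher in P4 and 3 lower. That of 8 CDK inhibitor genes was -0.64, and 3 were lower.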
